A study of Mus musculus with 4 samples.

Results

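The regions described here are the accessible gene promoters that were found in every library of an ATAC-seq experiment on bone marrow-derived macrophages (BMDMs). ATAC-seq, a sequencing assay of transposase-accessible chromatin, marks open DNA by the adapters that the Tn5 transposase inserts into it. Peaks of the 4 libraries that overlapped by at least 1 bp on chromosomes 1 to 19, X and Y were merged into regions, and each region took the annotation of its highest peak. The promoters were chosen by the peak calls themselves, namely a peak in all 4 libraries and a highest peak annotated to a promoter. This gave 7920 promoter regions out of 60710 merged regions and out of 25442 regions shared by all libraries, of which they made up 31.1%. They belonged to 7532 genes, and 373 genes had more than 1 such region. Protein-coding genes held 7617 of the 7920 regions.

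Both groups came from wild-type mice aged 8 to 12 weeks, whose bone marrow cells were differentiated for 6 days with L929 supernatant as a source of MCSF, the macrophage growth factor. The control libraries (n = 2) came from cells without further treatment, and the IL-4 libraries (n = 2) from cells that received 20 ng/ml IL-4 and were taken after 1 h. The methods name biological replicates but not the number of animals, so the tests measure the spread between these libraries. The comparison asks whether a short IL-4 stimulus alters how open promoters are.

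A promoter is the stretch around a transcription start site (TSS) where general transcription factors and RNA polymerase assemble. Many mammalian promoters lie in CpG islands, which are rich in CG dinucleotides and are kept open in most cell types by ubiquitous factors such as SP1, NRF1, ETS proteins and NF-Y. IL-4 acts through its receptor and JAK kinases on STAT6, a transcription factor that binds a palindrome with a spacing of 4 bases, and in macrophages STAT6 is known mostly from distal enhancers, which are opened in this lineage by PU.1, AP-1 and C/EBP factors.

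The sequences of a few members show what these promoters are made of. The 3 promoters Ccbl2, Pcca and Kbtbd8 are among the 6 tallest, ranked by the height in their lowest library. Rnf169 and Mgst3 are among those with the largest increase with IL-4, and Prkcb and Pank4 among those with the largest decrease. Each line gives the 120 bases directly before the RefSeq start, 5′ to 3′ on the strand of the gene, from GRCm38.p6. Capitals mark the CCAAT box, the motif of NF-Y, and the GC box GGGCGG, a motif of the SP and KLF proteins, on either strand. The stretches lie at chr3:142700928-142701047 (Ccbl2, plus strand), chr14:122534208-122534327 (Pcca, plus), chr6:95117760-95117879 (Kbtbd8, plus), chr7:99980459-99980578 (Rnf169, minus), chr1:167393842-167393961 (Mgst3, minus), chr7:122289005-122289124 (Prkcb, plus) and chr4:154964003-154964122 (Pank4, plus), outside any annotated exon.
Ccbl2: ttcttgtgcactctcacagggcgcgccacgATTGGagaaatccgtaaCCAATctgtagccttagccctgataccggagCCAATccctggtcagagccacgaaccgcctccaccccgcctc
Pcca: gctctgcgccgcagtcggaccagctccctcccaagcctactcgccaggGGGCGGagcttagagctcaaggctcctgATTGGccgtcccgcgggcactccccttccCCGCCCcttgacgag
Kbtbd8: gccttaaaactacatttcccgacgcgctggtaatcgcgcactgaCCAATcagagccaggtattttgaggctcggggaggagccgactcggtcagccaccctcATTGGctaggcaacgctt
Rnf169: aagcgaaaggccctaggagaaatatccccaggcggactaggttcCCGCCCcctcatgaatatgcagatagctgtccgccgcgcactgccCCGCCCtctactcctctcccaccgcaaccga
Mgst3: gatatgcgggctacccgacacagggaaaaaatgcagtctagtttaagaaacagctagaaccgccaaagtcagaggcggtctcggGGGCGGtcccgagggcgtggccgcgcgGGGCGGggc
Prkcb: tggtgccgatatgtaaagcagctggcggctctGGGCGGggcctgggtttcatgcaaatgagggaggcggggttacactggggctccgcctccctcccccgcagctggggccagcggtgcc
Pank4: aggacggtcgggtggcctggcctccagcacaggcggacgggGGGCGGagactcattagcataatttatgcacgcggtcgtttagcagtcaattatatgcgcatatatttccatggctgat
The tall promoters held between 1 and 3 CCAAT boxes in these 120 bases, and the 4 others held GC boxes but no CCAAT box.

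The promoter regions had a median length of 424 bp, with a range of 127 to 1352 bp, compared to 291 bp for intronic and 295 bp for intergenic shared regions. The centre of the highest peak lay at a median of −55 bp from the TSS, where minus means upstream, with quartiles of −127 and −3 bp, and 75.9% of the centres were upstream. The deposited annotation calls a peak a promoter from about 1000 bp upstream to 100 bp downstream, so the choice of the regions favours upstream centres. The outermost members were those of Rfx5 and Sfr1, both at −997 bp. A further 146 regions had a centre more than 100 bp downstream of the listed TSS, up to 860 bp.

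Coverage by peaks was centred just upstream of the TSS in all libraries. For the 7815 regions whose transcript was found in the RefSeq annotation, peaks were most common at −42 and −40 bp in control replicates 1 and 2, where 86.8% and 86.1% of the regions had a peak. In IL-4 replicates 1 and 2 the maximum was at −35 and −40 bp, with 86.4% and 83.0%. Coverage was not symmetrical, which the choice of the regions favours, since its window reaches about 1000 bp upstream but 100 bp downstream. At −200 bp, 47.7% and 46.2% of the regions in control and 45.2% and 39.7% in IL-4 had a peak, compared to 23.4%, 22.1%, 21.9% and 16.6% at 200 bp downstream. All 4 profiles had the same shape, and that of IL-4 replicate 2 was the lowest on both sides.

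**Figure D1:**
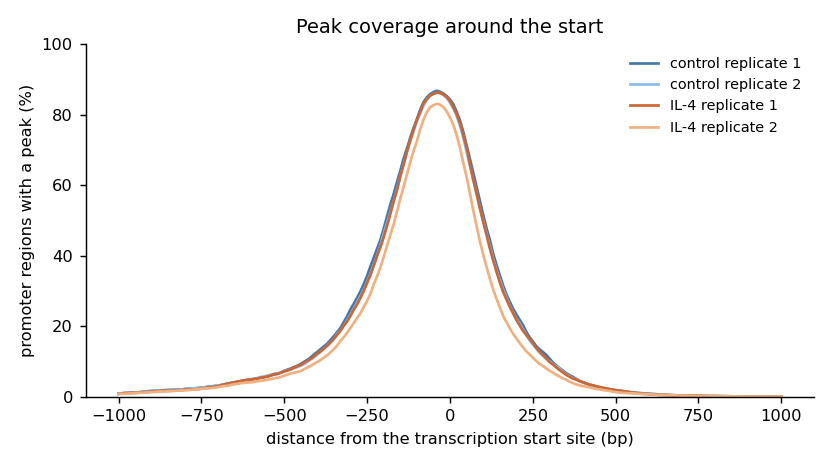
Percentage of the 7815 promoter regions with a peak (y axis) by distance from the TSS in bp (x axis, upstream negative), with 1 line per library. All lines reach their maximum between −42 and −35 bp and fall more slowly upstream than downstream, a direction that the promoter window favours.

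The value compared between libraries is the highest peak score of a library in a region, called height here. It is taken here to be the peak caller's q-value as −log10, a unit that neither labels nor headers state and that stays uncertain, because each library holds peaks below the cutoff named in the methods. It grows with sequencing depth, which is unknown because the files hold no read counts. The libraries held 39462 to 45250 peaks, and IL-4 replicate 2 stood apart with the fewest peaks and the lowest heights. The median height of the promoters was 14.4 and 13.2 in control replicates 1 and 2, and 13.6 and 10.8 in IL-4 replicates 1 and 2. The groups overlapped, with IL-4 replicate 1 between both controls (means 13.8 ± 0.842 and 12.2 ± 1.99, SD, n = 2 and 2, difference −1.64, exact permutation p = 0.6667, 2-sided, as are all tests here, where 0.3333 is the smallest p that 2 against 2 libraries allow). Without IL-4 replicate 2 the difference was −0.225. The median length of the promoter peaks was 308 and 297 bp in control and 293 and 251 bp in IL-4 libraries (difference −30.5 bp, exact permutation p = 0.3333). In all, these peaks covered 2877 and 2801 kb in control and 2797 and 2453 kb in IL-4 libraries (difference −214 kb, exact permutation p = 0.3333), so both IL-4 libraries were below both controls by these measures, with IL-4 replicate 1 only just below control replicate 2. Without IL-4 replicate 2 the covered length differed by −42.4 kb. With gaps up to 100 bp merged, IL-4 replicate 1 (2871 kb) lay above control replicate 2 (2865 kb), so that the groups overlapped (difference −226 kb, exact permutation p = 0.6667).

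Promoters were the highest class of shared regions in each library, which is a description, since height took part in the choice of the regions. The medians of intronic regions were 11.6 and 10.1 in control and 10.1 and 7.86 in IL-4, and those of intergenic regions were 11.9, 10.2, 10.5 and 8.22. Promoters supplied between 47.7% and 51.7% of the regions above the 90th percentile of height of a library. On the log2 scale the median promoter exceeded the median of all other shared regions by 0.296 and 0.385 in control and by 0.403 and 0.426 in IL-4 libraries. Both IL-4 values were above both control values (difference 0.0742, exact permutation p = 0.3333). The difference was 0.03 without control replicate 1 and 0.118 without control replicate 2, and against intergenic regions alone the groups overlapped (difference 0.0567, exact permutation p = 0.6667).

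**Figure D2:**
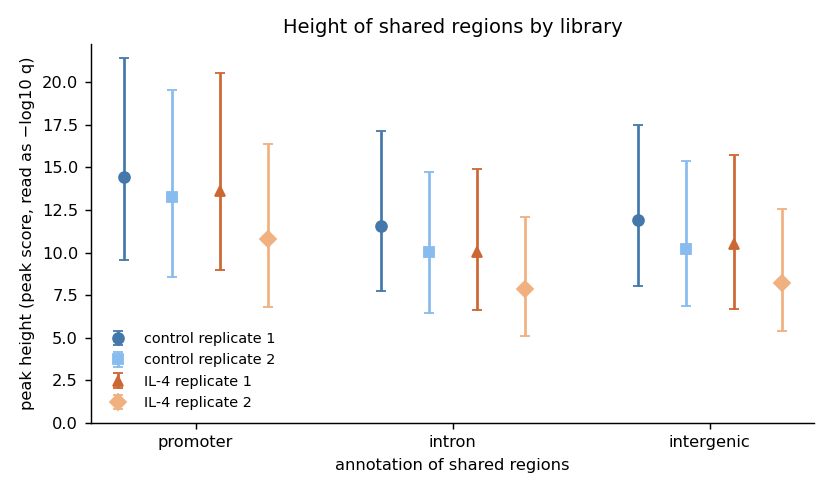
Median peak height (points) with the lower and upper quartile (bars) for promoter, intronic and intergenic shared regions (x axis) in the 4 libraries, as deposited peak scores read as −log10 q. Promoters have the highest median in each library, and IL-4 replicate 2 has the lowest values in each class.

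A peak in all libraries is what the regions were selected on, so the shares that had one are a description, and they go with height. Of the 11416 merged regions annotated to a promoter, 69.4% had a peak in all 4 libraries, compared to 34.9% of intronic, 36.2% of intergenic and 35.6% of exonic or gene-end regions. Another 1065 promoter regions had a peak in 3 libraries, 945 in 2 and 1486 in 1. Among the 1065, the missing library was IL-4 replicate 2 in 511 cases, control replicate 2 in 243, IL-4 replicate 1 in 167 and control replicate 1 in 144. The members just inside the limit were the promoters of Wdr34, Arhgef12, Lifr, Imp3 and Edc4, whose weakest library had a height of 1.32 to 1.35. Just outside were Chid1, with heights of 28.2 in control replicate 1, 19.02 and 15.8 in the IL-4 libraries and no peak in control replicate 2, and Harbi1 and Igsf11, which lacked a peak in IL-4 replicate 2 only.

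The tallest promoters, ranked by normalised height in their lowest library, had similar deposited heights in both groups. This ranking favours regions that are high in every library. The region of Pcca, which encodes a subunit of the mitochondrial propionyl-CoA carboxylase, had heights of 51.6 and 54.0 in control and 61.2 and 51.0 in IL-4 libraries. Ccbl2, a cysteine conjugate-beta lyase, had 54.5 and 47.7 in control and 56.4 and 47.1 in IL-4. Kbtbd8, a protein with kelch repeats and a BTB domain, had 58.6 and 45.9 in control and 55.3 and 49.2 in IL-4. In these 3 promoters the deposited heights of the groups overlapped, and their normalised log2 changes were 0.13, 0.05 and 0.04. Quantile normalisation aligns the highest ranks, and with median centring the changes were 0.32, 0.26 and 0.25. The others of the 6 tallest were 3110045C21Rik, 4632427E13Rik and Dcbld2, with log2 changes of 0.07, 0.09 and −0.23, which became 0.29, 0.29 and −0.01 with median centring.

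The sequence of the promoter regions differed from that of the other shared regions in composition. In the 200 bases around the peak centre the median GC content was 65.0%, compared to 49.5% in intronic and 49.0% in intergenic shared regions. The ratio of observed to expected CpG was 0.832 in the median, and it exceeded 0.6, a usual limit for a CpG island, in 80.9% of promoters, compared to 9.1% of intronic regions. Over all 32851 annotated promoters of the RefSeq table (150 bases before to 50 after the start) the median ratio was 0.413 and 37.7% exceeded 0.6. A TATA box on the strand of the gene, TATAAA between 40 and 15 bases before the start, was present at 62 of the 7378 starts inside a member region (0.84%) and at 593 of the 25473 starts outside (2.33%). Of the 7920 regions, 5743 held 1 annotated start and 1421 held 2 or more, while 14.6% had the start of an oppositely oriented transcript within 1000 bp upstream.

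Motifs were searched on both strands in the same 200 bases, and a match is only a description of the letters. The GC box GGGCGG occurred in 64.2% of the promoters (11.1% of intronic regions, 32.2% of all annotated promoters). CCAAT occurred in 35.1% (19.4% and 28.6%) and the ETS motif CCGGAAG in 17.3% (2.61% and 7.54%). NRF1 (GCATGCGC) with 4.596%, YY1 (AAGATGGC) with 3.599%, CRE (TGACGTCA) with 3.09% and the element TCTCGCGA with 2.12% were also more common than in intronic regions, where they ranged from 0.047% to 0.86%. Of these, the GC box, CCAAT and the ETS motif were the common ones.

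The motifs of macrophage enhancers had the opposite distribution. AP-1 (TGANTCA) occurred in 4.09% of promoters and 30.6% of intronic regions, the PU.1 motif GAGGAAG in 10.9% and 28.4%, C/EBP (TTGCNNAA) in 4.75% and 11.9%, and RUNX (TGTGGTT) in 2.21% and 9.85%. The STAT6 motif TTCNNNNGAA occurred in 211 promoters (2.66%), in 6.33% of intronic and 6.63% of intergenic regions and in 4.31% of all annotated promoters. The motif with a spacing of 3 bases, TTCNNNGAA, which other STAT proteins prefer, was found in 3.76% of promoters. ISRE (GAAANNGAAA), the E-box CACGTG and TATAAA anywhere in the window were found in 1.83%, 8.40% and 2.79%.

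The CCAAT box went with the height of a promoter. NF-Y, its factor, is a ubiquitous trimer with histone-like subunits. The 5138 promoters without CCAAT had a median height of 12.9 and 11.9 in control and 12.3 and 9.69 in IL-4 libraries. With 1 copy (1723 promoters) the medians were 16.1, 14.8, 15.3 and 12.0, and with 2 copies (726 promoters) 19.9, 18.2, 19.8 and 15.1. With 3 or more copies (333 promoters) they were 22.6 and 20.3 in control and 20.4 and 16.2 in IL-4. Height thus rose with each further copy in every library, treated or not. Among promoters with a CpG ratio over 0.6 the medians in control replicate 1 went from 13.1 without CCAAT to 22.6 with 3 or more copies, and among the others from 12.1 to 22.1.

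Outside promoters the gradient was smaller. Intronic regions had a median height in control replicate 1 of 11.5 without CCAAT and 12.0 with 3 or more copies (38 regions), and intergenic regions of 11.7 and 14.5 (51 regions). As a difference in mean normalised log2 height between regions with and without CCAAT, promoters gave 0.443 and 0.416 in control and 0.400 and 0.382 in IL-4 libraries, while non-promoter regions gave 0.0615, 0.0503, 0.0646 and 0.0456. The lowest promoter value was above the highest non-promoter value. Of the 792 promoters with the highest mean height 59.97% held CCAAT, and of the 792 with the lowest mean height 19.7%. GC boxes went with a smaller difference, with medians in control replicate 1 of 13.65, 14.8, 15.2 and 14.1 for 0, 1, 2 and 3 or more copies. Only among the promoters with a CpG ratio of 0.6 or less was it larger, from 12.3 without a GC box to 17.3 with 2 copies and 14.5 with 3 or more. These are descriptions across regions, and GC content, peak length and Tn5 sequence preference were not separated from the motif.

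CCAAT also had a preferred place. Over the 7815 regions with a matched start, copies were most frequent in the 10 bp that begin at −60 bp, with 4.75 copies per 100 promoters and 10 bp. They dropped to 0.934 in the 10 bp that begin at 10 bp downstream. GC boxes were most frequent in the 10 bp that begin at −50 bp, with 12.2 copies per 100 promoters, and kept at least 3.02 copies up to 200 bp downstream.

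**Figure D3:**
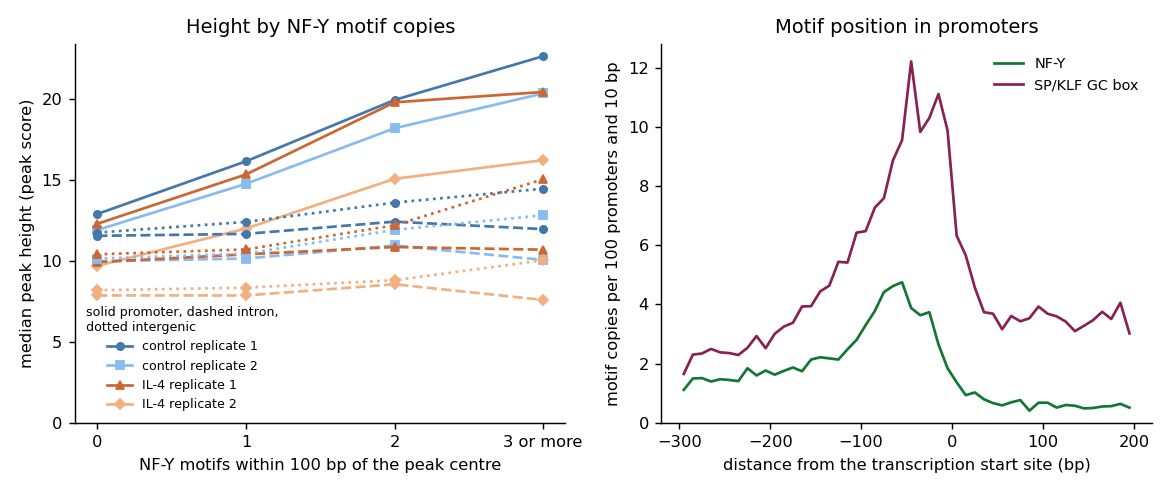
Left, median peak height (deposited peak score) by the number of NF-Y motifs in the 200-bp window, for promoters (solid), intronic (dashed) and intergenic regions (dotted) in each library. Right, copies of the NF-Y motif and of the GC box per 100 promoters and 10 bp by distance from the TSS; promoter height rises with NF-Y motif number in all 4 libraries, and the NF-Y motif is most frequent in the 10 bp from −60 bp and the GC box in those from −50 bp.

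The effect of IL-4 on single promoters was then measured. Heights of the 25442 shared regions were log2-transformed, quantile-normalised and fitted with limma, with Benjamini-Hochberg adjustment over all of them. No promoter passed the adjusted threshold of 0.05 in either direction (lowest limma adjusted p = 0.2355), where 0.0157% of all regions were called higher and 0.00786% lower. Without control replicate 2, 1 promoter passed, that of Smc5. An unadjusted p under 0.05 was reached by 240 promoters with an increase (3.03%, compared to 4.12% of all regions) and by 149 with a decrease (1.88%, compared to 4.15%). Together this is 389 promoters, or 4.91%, and 9.94% of intronic regions. Both IL-4 libraries lay above both controls at 1592 promoters (20.1%, compared to 19.2% of all regions) and below at 1184 (14.9%, compared to 18.6%). The median log2 change was 0.04 over the promoters and −0.03 over intronic regions. The share of promoters with both IL-4 libraries above was close to the background, and the other shares lay below it.

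Promoters moved less than other regions of the same height. Over the promoters with a mean log2 height of 3.95 or more (2896 regions), the SD of the log2 changes was 0.289, compared to 0.360 for 1582 intronic and 0.371 for 1629 intergenic regions of that height. An unadjusted p under 0.05 was found for 5.04%, 10.999% and 11.23% of them. The differences between replicates were closer in size between the classes, with an SD of 0.402 in promoters and 0.420 in introns for the control pair and of 0.386 and 0.429 for the IL-4 pair. Among the regions with a mean log2 height of 2.84 or less the shares were 4.89%, 7.96% and 8.13%. Over all promoters, Pearson's r between the log2 heights of a pair of libraries was 0.786 within control, 0.762 within IL-4 and 0.758 to 0.779 between the groups, so that a control and an IL-4 library were nearly as alike as 2 libraries of one group. In intronic regions r was 0.706 and 0.664 within and 0.613 to 0.643 between the groups. These correlations are across regions that share their libraries and carry no p.

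Promoters with the STAT6 motif were compared with the others, since STAT6 is the factor that IL-4 activates. The 6 members with the motif that had the 3 largest increases and 3 largest decreases held the following sites, shown with 10 bases on each side, 5′ to 3′ on the strand of the gene, with the motif in capitals. They lie at chr11:69685868-69685897 (Tnfsf13, minus strand), chr6:135188273-135188302 (Gm19434, plus), chr13:34002740-34002769 (Serpinb6a, minus), chr7:99483717-99483746 (Rps3, minus), chr17:24073448-24073477 (Kctd5, minus) and chr5:122372517-122372546 (Gpn3, plus), all on GRCm38.p6.
Tnfsf13: gtaagaactcTTCTTGGGAAacaggaagtc
Gm19434: agatgcaaaaTTCTCAGGAActagtccttt
Serpinb6a: ggaaaccagcTTCTGAGGAAactagcggcg
Rps3: aaaacttcatTTCCCATGAAcacttgcaag
Kctd5: gaacggacgcTTCCGGCGAAgggccgctgt
Gpn3: cctacgcacaTTCCCCGGAAcgccgtggct
The sites of Tnfsf13 and Gm19434 are centred at about −328 and −193 bp from the start and that of Rps3 at about −22 bp. Those of Gpn3, Kctd5 and Serpinb6a are centred about 23, 23 and 40 bp downstream.

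The STAT6-motif promoters changed little relative to the other promoters. Their mean normalised log2 height differed from that of promoters without the motif by −0.0816 and −0.0921 in control and by −0.017 and −0.0226 in IL-4 libraries. Both IL-4 values were above both controls, by 0.0671 (exact permutation p = 0.3333). In non-promoter shared regions the same difference was −0.220 and −0.206 in control and 0.204 and 0.201 in IL-4, a rise of 0.415 (exact permutation p = 0.3333). The rise was smaller at promoters than elsewhere by 0.348, a value for which both IL-4 libraries lay on the same side of both controls (exact permutation p = 0.3333). With the motif, both IL-4 libraries exceeded both controls at 45 of 211 promoters (21.3%, compared to 20.1% of promoters without it) and at 43.2% of the 1107 non-promoter regions that held it.

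Motif-holding regions were also split by distance and CpG content, and no difference between these classes was tested. At promoters with a peak centre within 100 bp of the start, IL-4 libraries exceeded controls at 18.4% of the 136 with the motif, compared to 20.5% of those without it. With a centre farther away it was 26.7% of the 75 with the motif (20 regions), compared to 19.3%. For non-promoter regions the share was 44.7% under 10 kb from a start, 42.2% from 10 to 100 kb and 44.9% beyond. The median log2 change of motif-holding promoters was 0.05 with a CpG ratio over 0.6 (147 regions) and 0.19 with a lower ratio (64 regions), compared to 0.04 and 0.01 without the motif, while the shares with IL-4 libraries above controls were 21.8% and 20.3%. At non-promoter regions with the motif the medians were 0.17 for a CpG ratio over 0.6 (58 regions) and 0.36 for a lower one. The motif with the 3-base spacing gave a difference of −0.0164 at promoters (exact permutation p = 0.6667).

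Among motif-holding promoters the largest increase was at Tnfsf13, which encodes the B cell ligand APRIL, with heights of 2.49 and 3.62 in control and 7.02 and 4.37 in IL-4 libraries (log2 change 1.15, SE 0.55). Serpinb6a, an intracellular protease inhibitor, had 7.10 and 5.73 in control and 10.9 and 12.0 in IL-4 (1.06, SE 0.48), and Gm19434 had 10.8 and 5.33 against 13.0 and 16.02 (1.14, SE 0.44). In each of them both IL-4 libraries were above both controls. Rps3, a protein of the small ribosomal subunit, had 14.8 and 19.3 in control and 7.82 and 4.69 in IL-4 (−1.26, SE 0.45). Both IL-4 libraries were below both controls there, as at Kctd5 (−1.05, SE 0.45) and Gpn3 (−0.96, SE 0.47). The lowest limma adjusted p of these 6 was 0.3886.

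AP-1 motifs gave a shift in the reverse direction, which at promoters was similar in size to the 0.0671 of the STAT6 motif. Promoters with TGANTCA had a mean log2 height below that of the others by −0.0689 and −0.0662 in control and −0.122 and −0.149 in IL-4 libraries, a change of −0.0677 (exact permutation p = 0.3333). In non-promoter regions with the motif the change was −0.0851 (exact permutation p = 0.3333). Here the values of promoters and other regions were of similar size, and their difference was not tested.

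**Figure D4:**
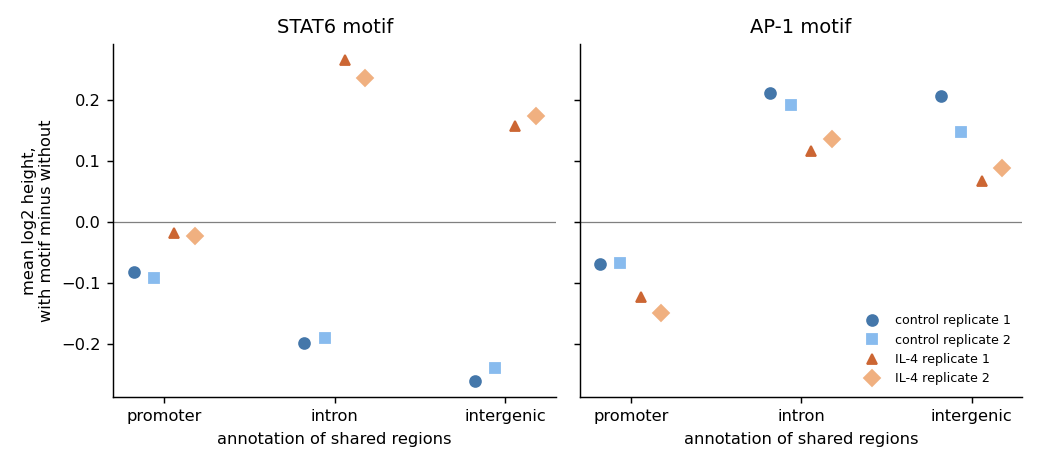
Difference in mean quantile-normalised log2 height between regions with and without the STAT6 motif (left) or the AP-1 motif (right), for promoter, intronic and intergenic shared regions in each library. For STAT6 the IL-4 libraries lie 0.0671 above the controls at promoters and 0.446 above them at intronic regions.

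The 8 promoters with the largest increases among those with an unadjusted p under 0.05 had log2 changes of 1.55 to 1.91 and include Bmi1, Rnf169, Gm16386, Senp6, Mgst3, Eaf1 and Xk, and none of the 8 passed adjustment. Bmi1, a subunit of the Polycomb complex PRC1, had heights of 1.76 and 2.67 in control and 5.60 and 8.72 in IL-4 libraries (log2 change 1.91, SE 0.56, limma adjusted p = 0.2494). Rnf169, a ubiquitin ligase of the DNA damage response, had 2.49 and 4.58 in control and 13.6 and 7.03 in IL-4 (1.79, SE 0.55, limma adjusted p = 0.2796). Both were weak peaks in control cells. Senp6, a SUMO protease, had 2.96 and 8.96 against 17.6 and 10.5, and Mgst3, a microsomal glutathione transferase, 4.98 and 2.69 against 7.61 and 12.3. At Eaf1, a partner of the elongation factor ELL, IL-4 replicate 2 barely exceeded the higher control, with 4.67 against 4.35.

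The 8 largest decreases were at Bola3, Snf8, Fcrl1, Prkcb, Lrfn4, Pank4, Gm13845 and Gga3, with log2 changes of −1.73 to −1.48. Bola3, which serves mitochondrial iron-sulfur cluster assembly, had heights of 15.2 and 13.6 in control and 2.75 and 4.93 in IL-4 libraries (log2 change −1.73, SE 0.52, limma adjusted p = 0.2683). Prkcb, protein kinase C beta, had 15.3 and 14.6 in control and 5.04 and 3.85 in IL-4 (−1.52, SE 0.49, limma adjusted p = 0.3187). Pank4, a relative of the pantothenate kinases, had 23.8 and 12.5 against 6.79 and 3.96. The controls at these promoters were clearly apart from the IL-4 libraries in deposited height. Snf8, a subunit of ESCRT-II, had 8.34 and 6.65 against 2.95 and 1.35, and Gga3, an adaptor of Golgi trafficking, had 11.4 and 10.4 against 3.62 and 3.07. Of these 16 promoters none held the STAT6 motif in its 200-bp window, a motif that only 2.66% of all promoters held. The changes of the 16 kept their sign under all 12 alternative fits, which their choice for groups without overlap favours.

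**Figure D5:**
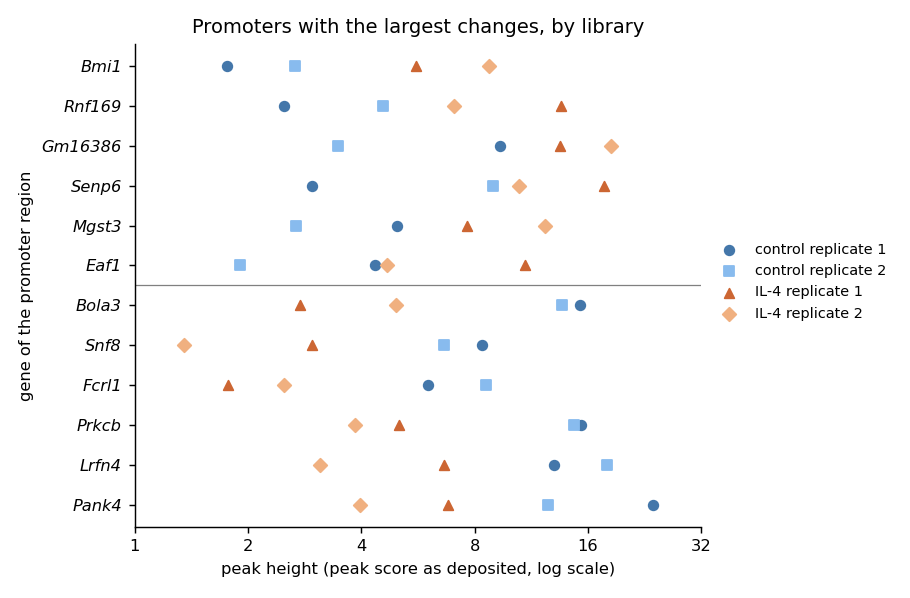
Deposited peak height (log axis) in each of the 4 libraries for the 6 promoters with the largest increases (above the grey line) and the 6 with the largest decreases (below it). IL-4 libraries lie to the right of the controls in the upper part and to the left in the lower part, and at Eaf1 the groups nearly touch.

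Genes that IL-4 is known to induce in macrophages were looked up next. Of 30 such genes 12 had a shared promoter region, and so did 33.0% of the 21900 protein-coding genes of the annotation. Another 9, among them Arg1, Mrc1, Ccl24, Bcl6 and Pparg, had a promoter peak in fewer libraries, and 9 had none, among them Retnla, Chil3, Ccl17 and Ccl22. In normalised height, which such counts use throughout, both IL-4 libraries were above both controls in 4 of the 12 regions and below in 2 (all promoters 20.1% and 14.9%). As deposited, Cish and Il4ra among the 4 overlapped, and the median log2 change was 0.25 (0.04 over all promoters). The largest increase was at Batf3, a basic leucine zipper factor, with heights of 2.39 and 4.38 in control and 7.43 and 6.21 in IL-4 libraries (log2 change 1.31, SE 0.56, limma adjusted p = 0.5308). Edn1, which encodes endothelin-1, had 6.64 and 6.35 against 10.7 and 9.14 (0.84, SE 0.49). At these 2 promoters the groups did not overlap in deposited height.

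The other promoters of this list had smaller changes or a wider spread. Cish, an inhibitor of cytokine receptors, had 24.6 and 16.7 in control and 24.9 and 19.1 in IL-4 libraries (0.28, SE 0.28), groups that overlapped as deposited and not after normalisation. Socs1, another inhibitor, had 6.04 and 9.98 against 7.64 and 9.98 (0.42, SE 0.50). Irf4, a factor of alternative polarization, had 9.14 and 9.30 against 7.43 and 6.34 (−0.17, SE 0.49), with both IL-4 libraries lower. Egr2, an early IL-4 target, had 15.8 and 15.5 against 6.91 and 11.7 (−0.58, SE 0.41), and Hbegf, a growth factor gene, 10.9 and 4.76 against 4.18 and 2.12 (−1.05, SE 0.56). Klf4, Myc, Clec10a, Slc7a2 and Il4ra had log2 changes between −0.33 and 0.60.

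A list of IL-4-repressed genes was taken from the study, which chose it in part on its own macrophage samples, so it is no independent evidence of a direction. Of its 10 genes, 5 had a shared promoter region, compared to 33.0% of all protein-coding genes. Nlrp3, the sensor of the inflammasome, had heights of 13.4 and 5.01 in control and 10.3 and 8.56 in IL-4 libraries (log2 change 0.41, SE 0.49). Smad3, a mediator of TGF-beta signals, had 14.9 and 18.1 against 14.9 and 8.86 (−0.29, SE 0.37), and Abca1, a cholesterol exporter, 12.7 and 8.74 against 8.78 and 6.95 (−0.18, SE 0.47). Lyz2, lysozyme, had 10.4 and 9.09 against 7.62 and 13.7, and Cd14, a co-receptor for lipopolysaccharide, 23.5 and 10.3 against 15.99 and 11.03. In normalised height the groups overlapped at all 5, with a median change of −0.01. Fos and Tlr2 had a promoter peak in fewer libraries, and Clec4d, Lyz1 and Il1b had none.

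Of 14 genes of the IL-4 receptor and its signalling chain, 11 had a shared promoter region, with 12 regions (33.0% of all protein-coding genes had one). Il2rg had a promoter peak in fewer libraries, and Il13ra1 and Jak3 had none. The receptor gene Il4ra had heights of 9.69 and 8.52 in control and 10.6 and 7.34 in IL-4 libraries, and Stat6 had 11.1 and 11.5 against 13.0 and 10.97. Of the kinases, Jak1 had 26.7 and 28.6 against 33.8 and 18.5 (0.01, SE 0.25) and Tyk2 had 34.5 and 21.5 against 20.7 and 10.0 (−0.74, SE 0.30, limma adjusted p = 0.4776). Tyk2 was the member that moved furthest, and its IL-4 libraries were both below its controls. Irs2, an adaptor of the receptor, had −0.29 (SE 0.31), and the phosphatase genes Ptpn1 and Ptpn6 had −0.23 and, in 2 regions, −0.07 and −0.08. In normalised height both IL-4 libraries were above both controls in 3 of the 12 regions (Il4ra, Stat6 and Cish, which overlapped as deposited) and below in 1 (all promoters 20.1% and 14.9%).

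All 10 genes of corepressors and coactivators had a shared promoter region, compared to 33.0% of all protein-coding genes. Both IL-4 libraries were above both controls in 3 of their 11 regions and below in 3 (all promoters 20.1% and 14.9%). Hdac3, a histone deacetylase, had 16.01 and 21.8 in control and 10.6 and 8.07 in IL-4 libraries (−0.79, SE 0.38, limma adjusted p = 0.5856), with no overlap of the groups. Hdac1 and Hdac2 had log2 changes of 0.18 (SE 0.32) and 0.38 (SE 0.37). Crebbp and Ep300, the acetyltransferases, had −0.62 (SE 0.49) and, in 2 regions of Ep300, −0.49 (SE 0.49) and 0.17 (SE 0.52). The deposited and normalised heights of both acetyltransferases were lower with IL-4 at −834 bp (Crebbp) and −924 bp (Ep300), and at the region of Ep300 near its start the groups overlapped. The corepressor gene Ncor1 had −0.45 (SE 0.53).

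NF-kB genes included Nfkbiz, an atypical inhibitor, with 3 separate regions whose IL-4 libraries were all above the controls. Its region at −79 bp from the start of one transcript had heights of 20.3 and 19.8 in control and 28.1 and 26.4 in IL-4 libraries (0.60, SE 0.26, limma adjusted p = 0.5431). The regions at −295 and −706 bp from the start of a longer transcript had 8.80 and 7.05 against 9.67 and 9.23 (0.51, SE 0.48), and 4.58 and 3.82 against 8.34 and 5.51 (0.90, SE 0.54). The 3 regions share a gene and are not independent. Nfkb2 (0.61, SE 0.43) and Rela (0.87, SE 0.44) also had positive values, and Nfkb1, Nfkbib and Bcl3 had values between −0.12 and −0.02. In all, 4 of 8 regions of this list had both IL-4 libraries above both controls and 0 below (all promoters 20.1% and 14.9%), 3 of the 4 being those of Nfkbiz, and 1 had an unadjusted p under 0.05.

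Immediate-early genes had 9 of 16 members in the set, compared to 33.0% of all protein-coding genes. Of these 9, 1 had IL-4 libraries above and 1 below the controls (all promoters 20.1% and 14.9%). Jun had heights of 16.1 and 18.3 in control and 17.3 and 18.6 in IL-4 libraries, and Junb 5.84 and 5.55 against 6.27 and 7.57. Of the transcription factors that shape macrophages, 10 of 13 were present, with IL-4 libraries above the controls in 2 of 14 regions and below in 3. Sfpi1, the gene of PU.1, had 14.8 and 15.5 against 11.02 and 8.29 (−0.42, SE 0.40), and Mitf 37.2 and 31.8 against 27.3 and 19.8 (−0.44, SE 0.23). Tfeb, a lysosomal regulator, had 5.57 and 7.43 against 10.3 and 8.99 in one region and 7.55 and 7.39 against 10.3 and 10.3 in another. Both regions of Tfeb had IL-4 libraries above controls, at 0.83 (SE 0.50) and 0.71 (SE 0.48).

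The macrophage identity of the cells was visible in the promoter set. Of 16 macrophage marker genes 11 had a shared promoter region, compared to 33.0% of all protein-coding genes. Another 2 had a promoter peak in fewer libraries, while Csf1r, Itgam and Aif1 had none under this annotation. Of markers of other cells, 0 of 8 T and NK cell genes, 0 of 6 B cell genes, 1 of 8 neutrophil genes (S100a8), 2 of 8 erythroid and megakaryocyte genes (among them Pf4) and 1 of 8 stromal and endothelial genes (Kdr) had one. Only 2 of the 12 macrophage marker regions had a CpG ratio over 0.6, compared to 80.9% of all members.

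The largest changes among macrophage markers were decreases. Tyrobp, the adaptor DAP12, had heights of 18.5 and 21.4 in control and 5.42 and 10.3 in IL-4 libraries (log2 change −1.18, SE 0.41, limma adjusted p = 0.3744) at −896 bp from the start. Cx3cr1, the fractalkine receptor, had 13.3 and 12.4 against 4.41 and 4.55 (−1.27, SE 0.50, limma adjusted p = 0.4601). At both promoters the groups were far apart in deposited height, and neither passed adjustment. Of the 12 marker regions 3 had both IL-4 libraries below both controls and 0 above (all promoters 14.9% and 20.1%), and the median change was 0.01.

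Large housekeeping families had a shared promoter in more of their genes than the 33.0% of all protein-coding genes. It was 47 of 86 for cytosolic ribosomal proteins, 53 of 87 for oxidative phosphorylation, 31 of 48 for the proteasome and 39 of 60 for translation initiation factors. In contrast, 133 of 380 Slc transporter genes (35.0%) had one. Zinc finger Zfp genes had one in 250 of 471, with a median mean log2 height of 3.83, compared to 3.65 over all promoters.

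The median log2 changes of these families lay between −0.11 and 0.13 (0.04 over all promoters). Over all promoters 54.2% had a positive change. Both IL-4 libraries were above both controls at 20.1% of them and below at 14.9%. Of the 47 ribosomal protein promoters 32 had a negative and 15 a positive log2 change, with a median of −0.11, and both IL-4 libraries were below both controls at 9 and above at 5. The lowest was Rps3 and the highest Rpl5, with 8.03 and 7.17 in control and 13.9 and 12.4 in IL-4 libraries (1.03, SE 0.45). At the 54 regions of oxidative phosphorylation genes IL-4 libraries were above at 18 and below at 6, with a median of 0.05. The share above was larger than over all promoters, a difference that was not tested. Ndufs3, a subunit of complex I, had 3.34 and 3.74 in control and 9.26 and 5.80 in IL-4 (1.28, SE 0.54). Translation initiation factors had positive values at 29 of 40 regions (median 0.13), yet the largest single value was negative, at Eif2b3 with 18.4 and 12.7 against 5.28 and 5.65 (−1.28, SE 0.47). Proteasome genes had 9 regions above and 6 below out of 32, the highest being Psme1 with 8.04 and 4.58 against 13.3 and 9.62 (1.14, SE 0.49). None of the named family members passed adjustment.

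Replication-dependent histone genes had a shared promoter in 23 of 67 cases, and 5 of their 25 regions were above and 7 below. Hist2h2ac had 15.7 and 12.7 in control and 7.85 and 3.33 in IL-4 libraries (−1.26, SE 0.49). Histone genes are nearly identical copies that lie in clusters, so assignment of reads between them is uncertain. Rab GTPases, which direct vesicle traffic, had 7 regions above and 8 below out of 42, with Rab11b at 38.8 and 30.8 against 20.6 and 20.5 (−0.63, SE 0.24). Slc transporters had 27 above and 18 below out of 143, and Zfp genes 60 above and 35 below out of 268. These counts can be set against 20.1% above and 14.9% below over all promoters.

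Promoters with a low CpG ratio differed somewhat from CpG-rich ones. The 1513 promoters with a ratio of 0.6 or less had a median length of 350 bp, compared to 440 bp for the 6407 others, and a lower median of the mean log2 height, at 3.50 compared to 3.68. An unadjusted p under 0.05 was found at 8.00% of them and at 4.18% of the CpG-rich ones, compared to 8.28% of all shared regions. Both IL-4 libraries were above both controls at 19.4% of the low-CpG and 20.3% of the CpG-rich promoters, and below at 17.1% and 14.4%. The SD of the log2 changes was 0.458 in low-CpG promoters, compared to 0.403 in CpG-rich ones. The 756 regions that held no annotated start were the weakest group, with a median of 3.11 and a length of 305 bp.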

How the data were processed

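ATAC-seq libraries of 2 control and 2 IL-4-treated BMDM cultures were analysed from the annotated peak lists that the authors deposited. Per the study's methods, reads were aligned to mm10, peaks were called in each library and annotated to the nearest TSS, and the submitters' processing notes name BWA 0.7.10, SAMtools 0.1.19, MACS2 2.0.10 and HOMER 4.2 without their roles. The deposited peak score was read as −log10 of the q-value, from its lowest values of 1.3 and 1.32, although neither labels nor headers name its unit. Between 133 and 603 peaks per library scored under 2, which in this reading is below the cutoff on q in the study's methods, so the unit of the heights is uncertain. The score depends on depth, which is not known, so no interval for counting error can be given, and the differential test on reads that the study used was not run.

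The members and the gene lists were chosen with earlier results of these data known. Peaks were merged into regions as described above, and the 12 mitochondrial peaks were left out. The highest score per library and region was log2-transformed and quantile-normalised over the 25442 shared regions. IL-4 was compared to control with limma 3.58.1 (R 4.3.3, eBayes with trend, Benjamini-Hochberg adjustment over all regions, threshold 0.05). The fit was tested on simulated data with log2 changes above the largest promoter change of 1.91. That simulation does not show whether changes of the observed size can be called. Single values per library were compared with an exact permutation test. Named promoters are the 8 largest increases and 8 largest decreases with an unadjusted p under 0.05, the 6 tallest, those next to the limits of the rule, the 3 highest and 3 lowest with a STAT6 motif, members of the lists and the 2 extremes of families in each direction, and a few of these are not reported here. Sequences, gene positions and starts came from RefSeq on GRCm38.p6, whose chromosomes fit the deposited coordinates. Of the 7920 regions, 7815 had their transcript in this annotation, and 77.3% of these had the same TSS distance within 2 bp. Motifs were counted within 100 bp of the peak centre. Alternatives were a minimum score, the overlap that merges peaks, gaps up to 100 bp, the sum of scores, median centring, no variance trend, promoters fitted alone, the replicate block, the start in the reference annotation, the search of the whole region and leaving out each library. Analyses used Python 3.11.15, pandas 2.3.3 and numpy 2.4.6.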

Additional observations from a re-analysis of the deposited data

Results flagged for a closer look

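The mitochondrial peaks lie outside the promoter comparisons. The highest mitochondrial peak score was 12.82 in IL-4 replicate 2 (4 peaks), above the 6.97 and 6.75 of control replicates 1 and 2 (3 and 2 peaks), while IL-4 replicate 1 reached 5.94 (3 peaks). It was looked at again because it exceeded both controls in data that no comparison used. It is 1 library, and no test was made.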

How the results depend on the processing

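The number of shared promoter regions was 7890 with a minimum score of 2, 7891 with an overlap of 50 bp, 7804 with gaps up to 100 bp merged, 8343 with the start in the reference annotation, and 8098 to 8424 when a library was left out. The number of promoters called higher ranged from 0 to 1 when a library was left out, and the number called lower was 0 in each of these fits. The call came without control replicate 2, at Smc5, a subunit of the SMC5/6 complex (log2 change 2.11, limma adjusted p = 0.0229, compared to 1.38 and 0.2355 with all libraries). Its heights were 6.16 and 14.6 in control and 21.6 and 21.0 in IL-4 libraries, and the cause was not tested. In a fit without a library, the single library left in a group is assumed to vary like the other group. The difference of 0.0671 for STAT6-motif promoters was 0.0392 when the whole region was searched. The labels do not state whether equal replicate numbers mark paired cultures. Pearson's r of the replicate deviations of both groups was 0.001 over promoters, and a correlation across regions cannot decide this. With the replicate block 0 promoters were called in either direction (lowest limma adjusted p = 0.09769), and 5.21% had an unadjusted p under 0.05. The median log2 change of promoters lay between 0.00 and 0.08. Over the 37 named regions, 430 values under 12 alternative fits gave 8 changes of sign, 0 of them among the 16 largest changes, and 0 passed the adjusted threshold. The 16 were chosen with groups that did not overlap, which favours a stable sign. The groups of 2 libraries and the unknown depth limit what could be detected.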
